A study of Mus musculus with 8 samples.

Results

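Matrix metalloproteases are secreted or membrane-bound enzymes that cut proteins of the extracellular matrix. The 10 genes described here, Mmp2, Mmp3, Mmp9, Mmp10, Mmp11, Mmp12, Mmp13, Mmp14, Mmp15 and Mmp17, were taken by name from the 21878 genes of the deposited expression table, which holds 13 other Mmp genes. RNA was sequenced from wild-type (WT) astrocytes of newborn (P0) C57BL/6 mice, in 4 untreated libraries and 4 libraries of cells given IL-1α/TNFα/C1q, a cocktail of 2 cytokines and a complement protein. All libraries share the strain, the age and the genotype. The dose and duration of the cocktail, and whether animals were pooled, were not given in the sources used here. Separate cultures or animals are not stated for the 4 libraries of a group, so a p-value measures library-to-library spread only, part or all of which may be technical. In 3 cocktail libraries the treatment field spells C1q with a different digit, and their titles set the group.

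A matrix metalloprotease is made as an inactive pro-enzyme, in which a cysteine of the propeptide holds the zinc ion of the catalytic site. Removal of the propeptide by plasmin, by furin-like convertases or by another metalloprotease frees the site. Tissue inhibitors of metalloproteases (Timps) then block it, so the RNA level of a gene is not a measure of enzyme activity. In brain, these enzymes are known for opening the basement membrane of vessels, for cutting the perineuronal matrix and for releasing cytokines and receptors from cell surfaces.

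Levels are FPKM, fragments per kilobase of gene at equal library size, and can be compared between genes because they are per length. Each is a sum over the gene and does not tell exons or transcripts apart. The libraries held 19195898 to 20640490 fragments each. The astrocyte label was checked against 10 astrocyte markers, all of which passed the filter on low values described below. Their summed level was 1396 to 1551 FPKM in untreated and 1213 to 1242 FPKM in cocktail libraries. This sum hides changes in both directions: 2 of the 10 were called higher, 7 lower and 1 neither. Over all tested genes, 26.6% were called higher and 41.1% lower. The median log2 change of the 10 markers was -0.73, against -0.05 over all tested genes. Markers of other cell types are given as sums with the calls behind them, since members of 1 list could go both ways. Fibroblast and meningeal markers summed to 245 to 268 FPKM in untreated and 108 to 136 FPKM in cocktail libraries, but of the 8 tested 3 were called higher, 3 lower and 2 neither, with a median log2 change of -0.02. The lower sum was mostly Ogn, at 137 and 18.6 FPKM, with Col1a1 and Col1a2, while Lum rose from 0.237 to 7.69, Dcn from 1.45 to 8.31 and Pdgfra from 0.934 to 3.07 FPKM. Mural markers summed to 560 to 631 and 125 to 140 FPKM, with 4 of 4 tested called lower and most of the sum Acta2, at 581 and 111 FPKM. Endothelial markers summed to 5.40 to 6.04 and 2.00 to 3.19 FPKM. Their lower sum was Kdr, at 3.99 and 0.616 FPKM, while Flt1 was 0.219 and 0.325 FPKM (called higher without the filter), Esam was 0.679 and 1.08 FPKM, and Cldn5 was at 0. Oligodendrocyte lineage markers summed to 208 to 222 and 118 to 122 FPKM (3 of 4 tested called lower), with Mog at 0. Most of this sum was Olig1, at 139 and 74.8 FPKM, while Mbp, Mag and Sox10 averaged at most 0.432 FPKM in either group. Neuron markers summed to 140 to 158 and 52.3 to 59.5 FPKM (of 4 tested 2 called lower and 1 higher). Most of that sum was Stmn2, at 125 and 38.8 FPKM, while Rbfox3, Snap25 and Slc17a6 averaged at most 0.0526 FPKM in either group. In bulk RNA, fewer cells of a type and less RNA per cell cannot be told apart.

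Metalloprotease RNA differed between the groups in amount and in make-up. Summed over the 10 genes, the level was 149.6 ± 3.86 FPKM in untreated and 424 ± 30.0 FPKM in cocktail libraries (SD, n = 4 per group), 2.83-fold higher, and the 2 groups of libraries did not overlap. Most of the gain was Mmp3: without it the sum was 148 ± 3.62 FPKM in untreated and 216 ± 4.84 FPKM in cocktail libraries, 1.46-fold higher. Mmp3 made up 1.22% ± 0.228 of the sum before and 49.0% ± 2.85 after treatment (SD, n = 4). The share of Mmp14 went from 57.6% ± 0.313 to 38.8% ± 2.52, that of Mmp2 from 14.2% to 4.18% and that of Mmp15 from 13.8% to 1.28%.

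**Figure D1:**
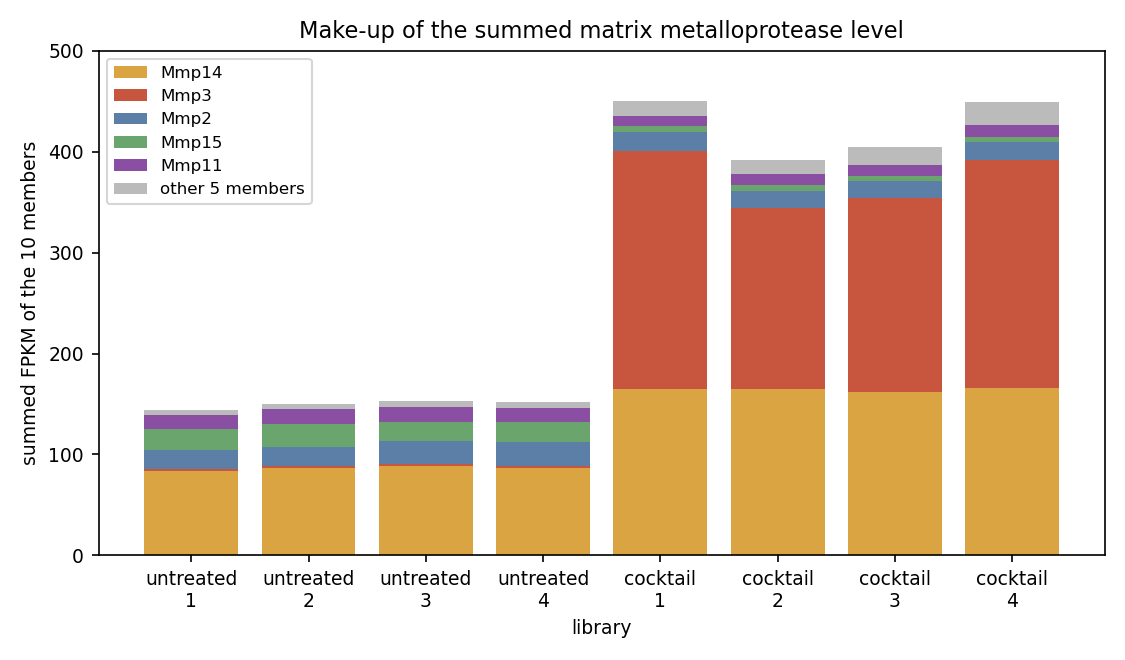
Summed FPKM of the 10 metalloprotease genes in each of the 8 libraries, with 1 stacked bar per library and the 5 most abundant genes in color. The untreated bars end between 144 and 153 FPKM and consist mostly of Mmp14, and the cocktail bars end between 392 and 450 FPKM with Mmp3 and Mmp14 as the main parts.

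The order of the genes by level differed as well. In untreated cells Mmp14 stood first at 86.2 FPKM, followed by Mmp2 and Mmp15, whose ranges over libraries overlapped, then by Mmp11, Mmp17, Mmp3 and Mmp12. Mmp9, Mmp13 and Mmp10 came last, and each overlapped its neighbor in the order. In cocktail-treated cells Mmp3 stood first at 209 FPKM and Mmp14 second at 164 FPKM, with no overlap, followed by Mmp2 and Mmp11. The next 5 genes, Mmp17, Mmp15, Mmp9, Mmp12 and Mmp13, each overlapped their neighbor, and Mmp10 was lowest.

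**Figure D2:**
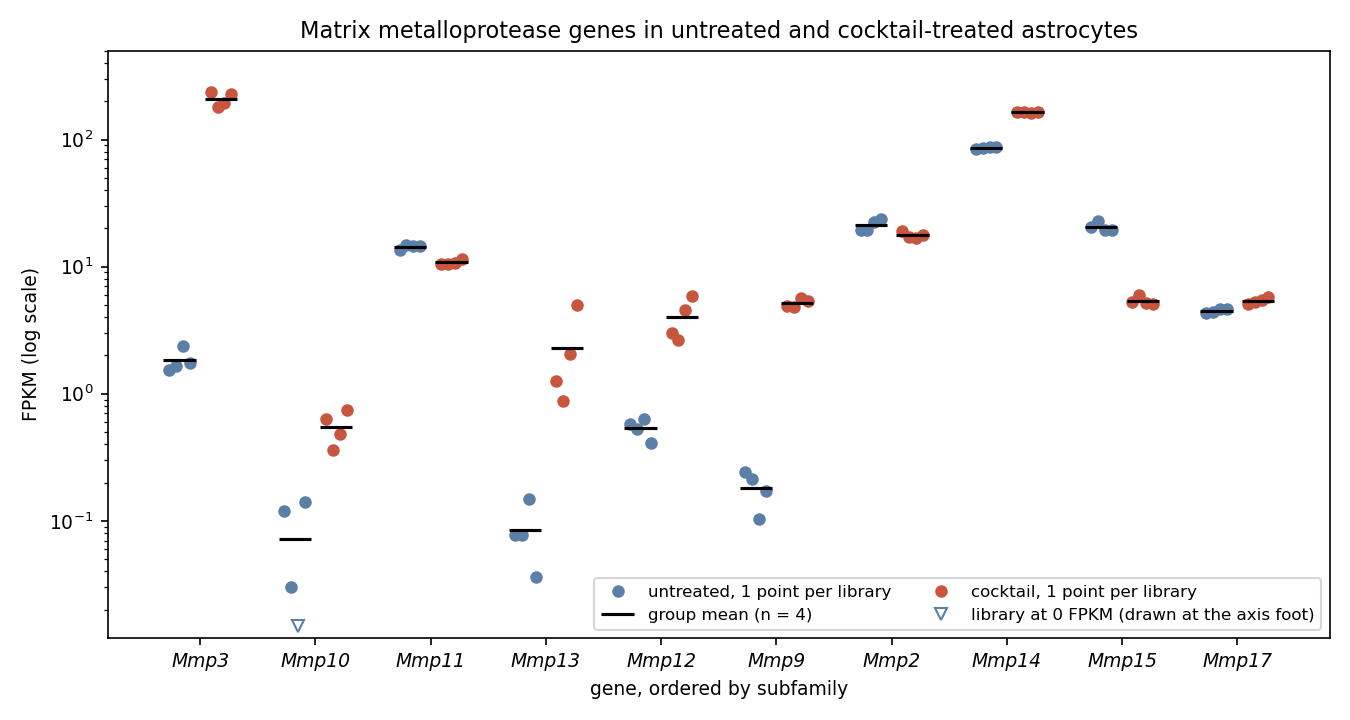
FPKM of each gene on a log axis, 1 point per library, with the group mean as a black line (n = 4) and a library at 0 FPKM drawn as an open triangle at the foot of the axis. The untreated and cocktail points do not overlap for any of the 10 genes, and those of Mmp3 lie farthest apart, at 1.55 to 2.38 and 179.8 to 235 FPKM.

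Differences were tested with limma on log2(FPKM + 1), and called at a Benjamini-Hochberg adjusted p under 0.05. The filter on low values asked for 1 FPKM or more in 4 or more of the 8 libraries, and the 11845 genes that passed were fitted together. Mmp10 and Mmp13 lay under this filter, and Mmp9 and Mmp12 passed it only through the cocktail libraries. In the filtered fit, 5 of the 8 members that passed were called higher and 3 lower, where 26.6% of all tested genes were called higher and 41.1% lower. All 10 members had a value in a fit of the 17258 genes above 0 in any library: 7 were called higher, against a background of 20.3%, and 3 lower, against 32.9%. The members' 3 falls are thus near the share of all genes, and their 7 rises are above it, in a set chosen with earlier results of these data known. Their median log2 change in that fit was 0.73, and that of all its genes was -0.02. Of all calls in the filtered fit 39.3% were rises, and 51.8% were when libraries were rescaled by median ratios, while the members' 5 rises and 3 falls were called under both scalings. Groups did not overlap for 7 members that were higher, where this held for 19.0% of genes, and for 3 that were lower, where it held for 31.3%. For each member alone an exact two-sided permutation test gave p = 0.0286, the smallest that 70 assignments of 4 against 4 libraries allow.

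Mmp3, Mmp10, Mmp12 and Mmp13 lie in the metalloprotease cluster of chromosome 9, with Mmp1b between Mmp12 and Mmp3 and Mmp1a between Mmp3 and Mmp10. Their promoter sequences are shown because all 4 genes were higher in cocktail-treated cells, with those of Mmp14, the most abundant member of untreated cells, and Mmp15, the member that fell most, for contrast. The sequences are RefSeq's, on the plus strand of GRCm38.p6, with 100 bases before and 15 from the annotated start. Capitals mark an AP-1 motif (TGANTCA), the binding sequence of Jun and Fos proteins, and a TATA motif (TATAAA).
Mmp3, chr9:7445722-7445836: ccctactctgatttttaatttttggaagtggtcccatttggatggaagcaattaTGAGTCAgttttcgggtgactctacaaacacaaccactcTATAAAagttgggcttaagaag
Mmp10, chr9:7502242-7502356: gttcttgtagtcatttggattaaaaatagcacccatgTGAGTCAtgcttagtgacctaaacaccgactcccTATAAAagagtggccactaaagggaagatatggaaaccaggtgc
Mmp13, chr9:7272414-7272528: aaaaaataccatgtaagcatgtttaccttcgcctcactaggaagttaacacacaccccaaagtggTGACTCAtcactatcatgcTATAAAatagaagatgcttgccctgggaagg
Mmp12, later start, chr9:7347274-7347388: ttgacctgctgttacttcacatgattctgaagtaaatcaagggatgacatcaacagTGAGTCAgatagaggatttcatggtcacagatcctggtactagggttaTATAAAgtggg
Mmp14, chr14:54431498-54431612: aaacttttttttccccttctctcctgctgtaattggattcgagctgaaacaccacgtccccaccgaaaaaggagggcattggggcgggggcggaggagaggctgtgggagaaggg
Mmp15, chr8:95352196-95352310: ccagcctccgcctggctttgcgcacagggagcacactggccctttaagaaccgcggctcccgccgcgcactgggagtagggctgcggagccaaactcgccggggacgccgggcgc

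Windows of 250 bases before to 50 after the start were given for 7 members, and Mmp2, Mmp9 and Mmp17 had no entry. Both strands were searched, and no AP-1 match overlapped a TATA match. AP-1 and TATA stood in 1 window of all 4 chromosome 9 members and of none of Mmp11, Mmp14 and Mmp15. The AP-1 match began 46 bases before the start in Mmp3, 63 in Mmp10, 35 in Mmp13 and 44 before the later of the 2 annotated starts of Mmp12. The earlier start of Mmp12 had no AP-1 match. The TATA match began 7 bases before the start in Mmp3, 29 in Mmp10 and 16 in Mmp13. In Mmp12 it began 4 bases after the later start, so it is not upstream of it. Over 32851 windows of 27025 genes, AP-1 was found in 7.81%, TATA in 13.6% and both in 1.54%. The pair does not set apart the genes that rose: 8 of the 10 Mmp genes of the cluster had both, among them Mmp1a and Mmp20, which were at 0 in all 8 libraries. None of the 8 Mmp genes with a window outside the cluster had an AP-1 match. The Ets motif AGGAAG was found in 4 members and 35.4% of windows, and the NF-kB motif in no member and 4.51% of windows. A match describes letters in the window, and binding was not measured.

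Mmp3 encodes stromelysin-1, which cuts proteoglycans, laminin and fibronectin and activates other pro-metalloproteases. Its level was 1.55, 1.65, 2.38 and 1.75 FPKM in untreated libraries 1 to 4 and 235, 179.8, 193 and 227 FPKM in cocktail libraries 1 to 4. Every cocktail library was far above every untreated one. The means were 1.83 ± 0.374 and 209 ± 26.5 FPKM (SD, n = 4), 114-fold apart and resting on 262 and 30174 fragments. The fold lay between 108 and 127 when any 1 library was left out. Its log2 change of 6.21 (SE 0.0977, limma adjusted p = 3.3e-13) was the second largest rise among the 11845 tested genes. Mmp3 spans positions 7445822 to 7455975 of chromosome 9.

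Mmp10 encodes stromelysin-2, a close relative of Mmp3, and spans 7502342 to 7510242 of chromosome 9. It was detected at 0.119, 0.0300, 0 and 0.140 FPKM in untreated and 0.631, 0.358, 0.478 and 0.739 FPKM in cocktail libraries. These values rest on 4, 1, 0 and 5 fragments and on 22, 12, 17 and 26 fragments. All cocktail libraries were above all untreated ones, but 3 fragments, the limit that a count of 0 allows, are worth 0.0838 to 0.0901 FPKM for this gene, close to the untreated values; this limit covers counting error only. Mean levels were 7.64-fold apart. In the fit without the filter the log2(FPKM + 1) change was 0.53 (SE 0.0772, limma adjusted p = 0.00032). Mmp3 and Mmp10 share 202 words of 31 bases, 11.4% of those of Mmp3 and 11.9% of those of Mmp10, and are the only 2 members that share any. How fragments that match both were counted was not given in the sources used here, so the level of Mmp10 beside a gene as abundant as Mmp3 is uncertain.

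Mmp11 encodes stromelysin-3, which is activated inside the cell by furin and lies on chromosome 10 from 75923221 to 75932502, away from the cluster. It was lower in cocktail-treated cells, at 10.6, 10.5, 10.7 and 11.4 FPKM against 13.6, 14.7, 14.6 and 14.6 FPKM in untreated libraries. The groups did not overlap. The log2 change was -0.38 (SE 0.0386, limma adjusted p = 2.9e-06). Of the 3 genes named stromelysin, 2 were thus higher and 1 lower.

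Mmp13 encodes collagenase-3, the main collagenase of mice, and spans 7272514 to 7283333 of chromosome 9. It was near the detection limit in untreated libraries, at 0.0771, 0.0779, 0.149 and 0.0362 FPKM or 4, 4, 8 and 2 fragments. In cocktail libraries it reached 1.27, 0.871, 2.04 and 4.96 FPKM, on 68, 45, 112 and 269 fragments. The groups did not overlap, but the cocktail libraries differed widely among themselves. The means were 26.9-fold apart, and 16.4-fold without cocktail library 4. The log2(FPKM + 1) change in the fit without the filter was 1.45 (SE 0.305, limma adjusted p = 0.0031). On the recovered fragments, limma voom gave 4.44 (SE 0.901, adjusted p = 0.00039).

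Mmp12 encodes macrophage elastase and spans 7344397 to 7360461 of chromosome 9. Its level was 0.574, 0.525, 0.633 and 0.411 FPKM in untreated and 3.02, 2.66, 4.57 and 5.90 FPKM in cocktail libraries. All cocktail libraries were above all untreated ones, with 3 and 4 above 1 and 2. The means were 7.54-fold apart, with a log2 change of 1.67 (SE 0.164, limma adjusted p = 2.2e-06). This RefSeq span does not overlap that of Mmp1b on the opposite strand, which covers 7367670 to 7388026. In GENCODE, another gene annotation, the 2 overlap: Mmp12 reaches to 7369499 and Mmp1b covers 7368239 to 7388047. Whether the counting used strand was not given in the sources used here. Mmp1b itself was listed at 2 fragments over the untreated and 3 over the cocktail libraries.

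Microglia, the resident macrophages of brain, are a known source of Mmp12, and their markers moved with both genes among the cocktail libraries. The 18 microglia markers summed to 52.4 to 54.0 FPKM in untreated libraries and to 48.1, 47.6, 80.3 and 103 FPKM in cocktail libraries 1 to 4. No marker of the list was at 0 in all libraries, and of the 11 that passed the filter 5 were called higher and the other 6 were not, where 26.6% of all tested genes were called higher. Of all 18 markers in the fit without the filter, 2 were called higher (Fcer1g and Cd68), with Itgam (limma adjusted p = 0.055), Csf1r (0.083) and Tyrobp (0.071) no longer called. Mmp12 and Mmp13 had the same order of cocktail libraries as this sum, 4 highest, then 3, 1 and 2. In cocktail libraries 1 and 2, where the marker sum was below that of every untreated library, Mmp12 was still 5.30-fold and Mmp13 12.6-fold above the untreated mean. In libraries 3 and 4 they were 9.78-fold and 41.1-fold above it. Mmp3 did not divide in this way, at 113-fold in libraries 1 and 2 and 115-fold in 3 and 4. The part of microglia in the further difference between the 2 pairs of libraries was not tested.

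**Figure D3:**
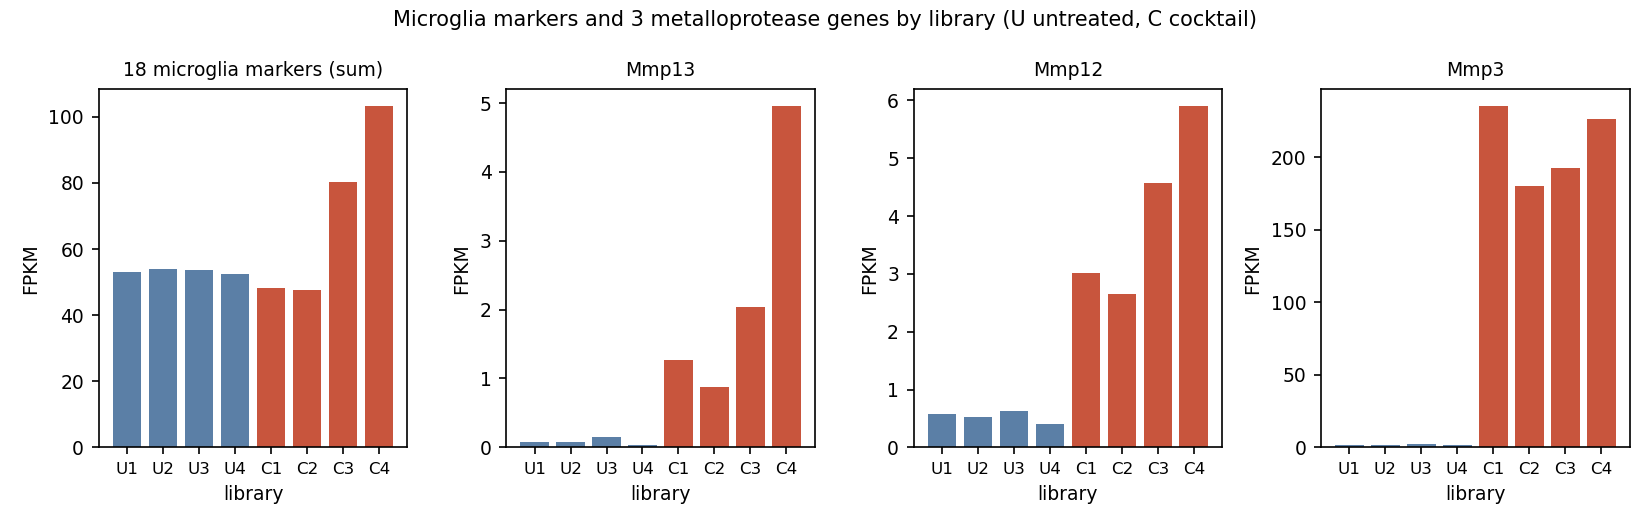
Bars give FPKM in untreated (U1 to U4) and cocktail (C1 to C4) libraries for the sum of 18 microglia markers, Mmp13, Mmp12 and Mmp3, each on its own axis from 0. The marker sum, Mmp13 and Mmp12 share the order C4, C3, C1, C2 among cocktail libraries, and Mmp3 is highest in C1.

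Mmp9 and Mmp2 encode the gelatinases, which cut denatured collagen and collagen of basement membranes, and they moved in opposite directions. Mmp9 lies on chromosome 2 from 164940326 to 164955850. It was 0.243, 0.215, 0.103 and 0.171 FPKM in untreated libraries, on 16, 14, 7 and 12 fragments. In cocktail libraries it was 4.86, 4.86, 5.70 and 5.38 FPKM, on 332, 319, 397 and 371 fragments. The cocktail libraries lay close together and far above the untreated ones. The means, 0.183 ± 0.0610 and 5.20 ± 0.412 FPKM (SD, n = 4), were 28.5-fold apart. The log2(FPKM + 1) change was 2.39 (SE 0.0643, limma adjusted p = 2.3e-11), and 4.84 in limma voom on fragments. Neutrophils also make Mmp9. The 8 neutrophil markers summed to 0.0530 to 0.525 FPKM in untreated and 3.40 to 6.05 FPKM in cocktail libraries, most of it Camp and S100a8. Camp rose from 0.0217 to 3.41 FPKM (limma adjusted p = 1.1e-07), and S100a8, under the filter, rose from 0.0979 to 1.08 FPKM without overlap (fit without the filter, limma adjusted p = 9.2e-06). Ly6g, Elane and Ngp were at 0 in all libraries, and the other 3 markers averaged at most 0.0984 FPKM in either group. The part of neutrophils in the rise of Mmp9 was not tested.

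Mmp2, on chromosome 8 from 92827290 to 92853421, was 19.4, 19.4, 22.6 and 23.5 FPKM in untreated and 19.2, 17.2, 16.7 and 17.7 FPKM in cocktail libraries. The groups were separated by a narrow gap, between untreated libraries 1 and 2 and cocktail library 1. The means were 21.2 ± 2.15 and 17.7 ± 1.07 FPKM (SD, n = 4), 1.20-fold lower after treatment. The log2 change was -0.25 (SE 0.0646, limma adjusted p = 0.0052). In the fit without the filter its adjusted p was 0.015, and it was 0.053 when untreated library 3 was also left out, 0.051 without cocktail library 3 and 0.14 without cocktail libraries 3 and 4. This was the smallest fall among the 3 members that fell. The 4 tested mural markers were also lower in cocktail libraries, while fibroblast and meningeal markers, with 3 called higher and 3 lower, went both ways, and the part of either list in the falls of Mmp2, Mmp11 and Mmp15 was not tested.

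The 3 membrane-anchored enzymes each behaved differently. Mmp14 (MT1-MMP) is a transmembrane collagenase that, with Timp2 as a bridge, activates pro-Mmp2 at the cell surface, and its gene lies on chromosome 14 from 54431598 to 54442456. It rose from 83.6, 86.5, 88.0 and 86.8 FPKM to 165, 164, 161 and 166 FPKM. Both groups were tight, and the means of 86.2 ± 1.90 and 164 ± 1.89 FPKM (SD, n = 4) were 1.90-fold apart. The log2 change was 0.92 (SE 0.0251, limma adjusted p = 2.5e-11).

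Mmp15 (MT2-MMP), a transmembrane relative of Mmp14 on chromosome 8 from 95352296 to 95374293, fell. Untreated libraries held 20.6, 22.8, 19.5 and 19.5 FPKM and cocktail libraries 5.28, 5.98, 5.20 and 5.04 FPKM. The groups were far apart, and the mean was 3.83-fold lower after treatment. The log2 change of -1.76 (SE 0.0583, limma adjusted p = 1.3e-10) was the largest fall of any member. The ratio of Mmp14 to Mmp15 went from 4.21 in untreated to 30.7 in cocktail-treated cells, and that of Mmp14 to Mmp2 from 4.09 to 9.29.

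Mmp17 (MT4-MMP), which is held by a lipid anchor and lies on chromosome 5 from 129584151 to 129611099, rose slightly. It was 4.28, 4.43, 4.67 and 4.66 FPKM in untreated and 5.08, 5.32, 5.42 and 5.72 FPKM in cocktail libraries. The groups did not overlap, and the means were 1.19-fold apart. The log2 change was 0.21 (SE 0.0471, limma adjusted p = 0.0017).

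**Figure D4:**
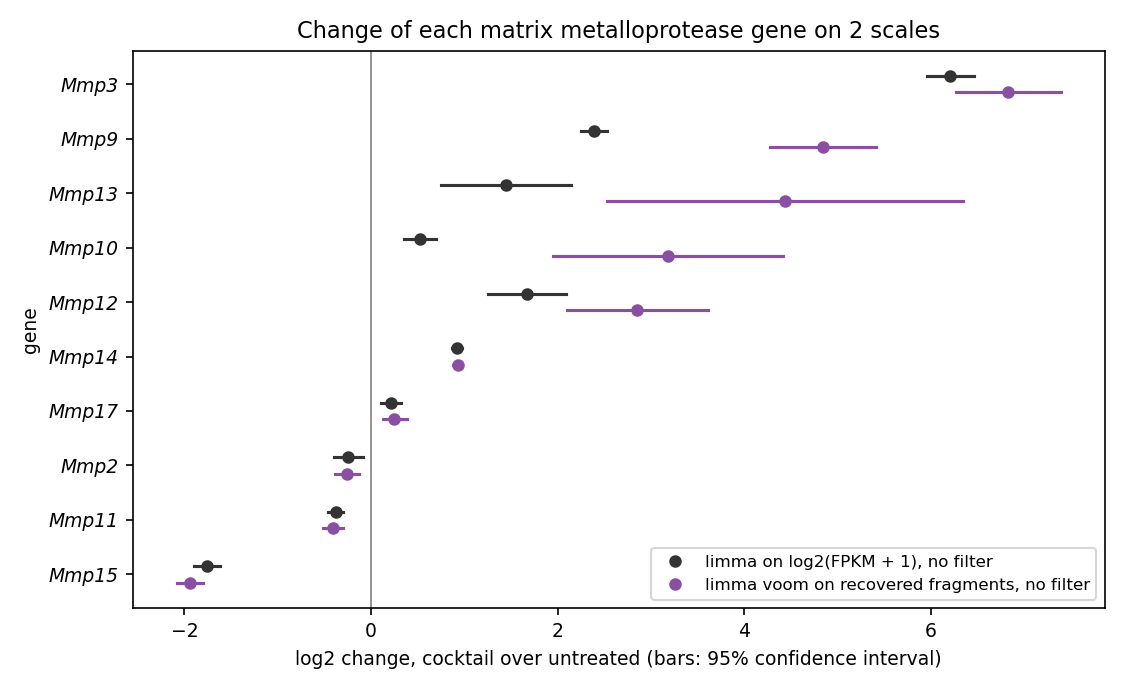
Log2 change, cocktail over untreated, of the 10 genes in 2 fits without a filter: limma on log2(FPKM + 1) and limma voom on recovered fragments (bars, 95% confidence interval). The signs agree for each gene, and low genes differ most between scales: Mmp10 is 0.53 on the first and 3.18 on the second, Mmp15 -1.76 and -1.94.

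The scale matters most for the low genes, because adding 1 FPKM before the logarithm shrinks their change. On recovered fragments, limma voom gave log2 changes of 6.83 for Mmp3, 4.84 for Mmp9, 4.44 for Mmp13, 3.18 for Mmp10 and 2.85 for Mmp12. The members at 4 FPKM or more in untreated cells moved little between the scales, at 0.93 for Mmp14, 0.25 for Mmp17, -0.26 for Mmp2, -0.41 for Mmp11 and -1.94 for Mmp15. All 10 were called by this fit, with adjusted p between 1.5e-15 and 0.0016.

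In the annotation of the authors' deposited table, 3 members (Mmp3, Mmp9 and Mmp14) carry the label of the TNF signaling pathway, 3 (Mmp3, Mmp9 and Mmp13) that of the IL-17 signaling pathway and 3 (Mmp2, Mmp9 and Mmp13) that of the relaxin signaling pathway. Of these 5 genes Mmp2 fell and the other 4 rose, where 7 of the 10 members rose. Mmp1a and Mmp1b, which are not members, also carry the IL-17 and relaxin labels, and neither was called higher.

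The chromosome 9 cluster spans 427 kb, from 7272514 to 7699585, and its 10 protein-coding genes are all Mmp genes. Mmp3 had the highest mean level of the 10 in both groups. Mmp13, Mmp12, Mmp3 and Mmp10, which are members, are described above. Of the other 6, Mmp1a and Mmp20 were at 0 in every library, and Mmp7, Mmp27 and Mmp1b averaged at most 0.0521 FPKM in either group. Mmp8, the neutrophil collagenase, averaged 0.00507 FPKM in untreated and 0.141 FPKM in cocktail libraries, with 0.362 FPKM in cocktail library 4. Its groups did not overlap, on 1 fragment over the untreated and 28 over the cocktail libraries. It was not called on log2(FPKM + 1) without the filter (limma adjusted p = 0.079) but was called higher by limma voom on fragments, with a log2 change of 3.06 (SE 0.768, adjusted p = 0.0024).

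**Figure D5:**
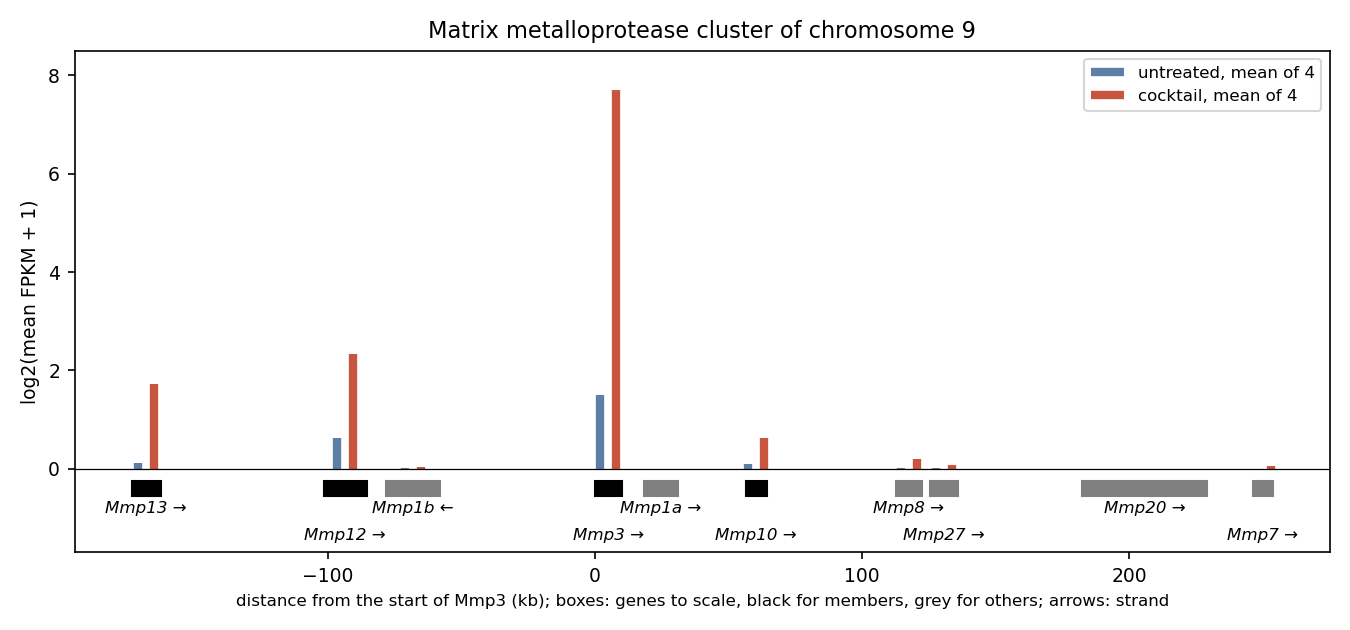
The metalloprotease cluster of chromosome 9, with distance from the start of Mmp3 in kb, genes to scale as boxes (black for the 4 members), arrows for strand and vertical lines for log2(mean FPKM + 1) in each group (n = 4). Mmp3 stands far above its neighbors in cocktail-treated cells, and Mmp1a and Mmp20 show no line.

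Of the 13 Mmp genes that are not members, 4 passed the filter, of which 3 were called higher and 1 lower. Their median log2 change was 0.22, and that of all tested genes -0.05. In the fit without the filter, 4 of 11 were called higher and 1 lower, where 20.3% and 32.9% of all its genes were. The gene called only there was Mmp24, at 0.196 and 0.471 FPKM without overlap of the groups (limma adjusted p = 0.0028). Mmp19, a secreted enzyme of basement membranes, rose from 11.4 ± 0.273 to 14.4 ± 0.629 FPKM (SD, n = 4), with a log2 change of 0.31 (limma adjusted p = 1.6e-05). Mmp16, the membrane-type enzyme MT3-MMP, fell from 3.38 ± 0.104 to 1.82 ± 0.172 FPKM (limma adjusted p = 7.5e-07). The calls of Mmp28 and Mmp23 were lost when single libraries were left out: Mmp28 was 2.84 ± 0.315 and 3.32 ± 0.108 FPKM (limma adjusted p = 0.027, and 0.076 without untreated library 2, 0.058 without untreated library 3 and 0.068 without cocktail library 2), and Mmp23 was 0.824 ± 0.187 and 1.19 ± 0.182 FPKM (limma adjusted p = 0.017, and 0.051 without untreated library 1 and 0.053 without cocktail library 1).

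Of 6 inhibitor genes, 1 was called higher and 4 lower, where 26.6% of all tested genes were called higher and 41.1% lower. The median log2 change of the 6 was -0.50, against -0.05 over all tested genes. Timp1, the inducible inhibitor, rose from 26.7 ± 2.83 to 211 ± 30.5 FPKM (log2 change 2.93, limma adjusted p = 9.3e-11). Timp3, which is bound to the matrix, fell from 433 ± 8.53 to 148 ± 10.6 FPKM (log2 change -1.55, limma adjusted p = 4.0e-11), and Timp2 fell from 423 ± 5.85 to 256 ± 4.12 FPKM (log2 change -0.72, limma adjusted p = 1.6e-10). A2m, a plasma protease trap, was 244 ± 4.23 and 236 ± 5.48 FPKM (limma adjusted p = 0.12), and was called lower under quantile normalization (limma adjusted p = 3.9e-05). The 4 Timp genes summed to 886 ± 11.2 FPKM in untreated and 617 ± 23.3 FPKM in cocktail libraries. The ratio of this sum to that of the 10 members went from 5.92 ± 0.125 to 1.46 ± 0.0724 (SD, n = 4), so Timp RNA remained the larger of the 2 per length. The ratio of Mmp3 to Timp1 went from 0.0688 to 0.994.

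Of 7 tested activator genes, 2 were called higher, 3 lower and 2 neither, with a median log2 change of -0.10. These counts are near the shares over all tested genes, of which 26.6% were called higher and 41.1% lower. Plaur, the receptor that holds the plasminogen activator urokinase at the cell surface, rose from 1.68 ± 0.380 to 3.39 ± 0.789 FPKM (limma adjusted p = 0.00036). Plau, which encodes urokinase itself, was 1.60 and 1.56 FPKM (limma adjusted p = 0.88). Pcsk6, a furin-like convertase, fell from 51.6 ± 3.94 to 8.65 ± 1.38 FPKM (log2 change -2.45, limma adjusted p = 3.1e-10). Plat, tissue plasminogen activator, fell from 23.1 ± 1.43 to 19.7 ± 1.26 FPKM (limma adjusted p = 0.0027). Furin, which activates Mmp11 and Mmp14, was 25.1 ± 0.573 and 23.4 ± 1.67 FPKM (limma adjusted p = 0.067, and 0.014 without cocktail library 1, 0.037 in voom and 0.036 with the replicate block).

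Genes of the factors whose motifs were searched were also measured. Their calls stand beside shares over all tested genes of 26.6% called higher and 41.1% lower. All 4 tested NF-kB subunit genes rose, with a median log2 change of 1.36, among them Relb from 10.5 ± 0.334 to 33.5 ± 0.782 FPKM (log2 change 1.59, limma adjusted p = 2.8e-12) and Nfkb1 from 25.5 ± 0.687 to 61.3 ± 1.38 FPKM (log2 change 1.23, limma adjusted p = 8.8e-12). Rela rose from 28.9 ± 0.570 to 46.9 ± 0.908 FPKM. Of 6 AP-1 subunit genes, 3 were called higher, 2 lower and 1 neither. Junb rose from 39.7 ± 0.812 to 107 ± 1.19 FPKM (log2 change 1.41, limma adjusted p = 9.1e-13) and Fosl2 from 25.5 ± 0.427 to 44.5 ± 0.990 FPKM. Jund rose from 43.1 ± 0.946 to 52.6 ± 2.44 FPKM (log2 change 0.28, limma adjusted p = 1.8e-05), while Fos fell from 7.98 ± 0.566 to 3.70 ± 0.466 FPKM (log2 change -0.94, limma adjusted p = 2.1e-07). Of 7 Ets genes, 3 were called higher, 2 lower and 2 neither. Ets2 rose from 2.67 ± 0.105 to 4.33 ± 0.713 FPKM (limma adjusted p = 0.00013), and Etv5 fell from 49.8 ± 2.79 to 34.4 ± 1.15 FPKM (limma adjusted p = 2.9e-07). Elk3 was 26.1 ± 0.897 and 25.4 ± 1.69 FPKM (limma adjusted p = 0.48). The call of Elk1, at 10.3 ± 0.421 and 11.3 ± 0.648 FPKM (limma adjusted p = 0.024), was lost without untreated library 1 (0.062) or 4 (0.064) or cocktail library 1 (0.066) or 3 (0.072).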

How the data were processed

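Polyadenylated RNA was sequenced from 4 untreated and 4 cocktail-treated astrocyte libraries, made with a stranded kit per the labels' protocols. The authors deposited FPKM per gene, with DESeq and build mm10 named in the submitters' processing notes. The aligner, the counting program and the use of strand were not given in the sources used here. Within a gene, FPKM stood in ratios of whole numbers (relative tolerance 1e-10), which gave whole fragments for each of the 16557 genes detected in 2 or more libraries, and totals of 19195898 to 20640490 per library. A chi-square of these fragments per gene, over genes with at least 20 in the pair, was 2.11 to 4.50 between untreated and 2.29 to 6.79 between cocktail libraries, where sampling noise alone gives 1.

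Groups and replicate numbers came from sample titles. limma (version 3.58.1, R 4.3.3) was fitted with a variance trend to log2(FPKM + 1), pseudocount 1, over genes at 1 FPKM or more in 4 or more libraries, with two-sided Benjamini-Hochberg adjustment over all genes fitted, and the scripts were tested on simulated data. The members and all gene lists were chosen with earlier results of these data known. All members are named; of each other list the largest called rise and fall and up to 2 more genes of highest mean FPKM are named by rule. Exceptions, named after their values were seen, are Plau, Mmp24, marker genes and the other genes of the chromosome 9 cluster. Alternatives were another pseudocount, other filters, scalings and variance settings, a replicate block, voom on fragments and leaving out libraries. The fits without a filter on voom or on fewer libraries were chosen after seeing the data. All 10 members were found in RefSeq (GRCm38.p6, the assembly mm10 names) by NCBI gene number, and motifs were searched in its promoter windows. The result of 1 marker gene is not reported here.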

Additional observations from a re-analysis of the deposited data

Results flagged for a closer look

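In 90 groups of 4 libraries, covering 45 genes, the gap of the highest or lowest library to its nearest neighbor was compared with the range of the group, and 3 passed Dixon's 95% critical value. Chance passes about 1 in 20 groups. Mmp11 was lowest in untreated library 1, at 13.6 FPKM with the next at 14.56 (ratio 0.873), and highest in cocktail library 4, at 11.39 FPKM with the next at 10.68 (ratio 0.834). Lama2, a laminin chain gene, was lowest in untreated library 1, at 6.939 FPKM with the next at 7.577 (ratio 0.941). Both genes were lower in cocktail than in untreated libraries, and their groups did not overlap with these libraries included.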

How the results depend on the processing

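Of 255 alternative values of the members' log2 changes, 252 kept the direction and the call, 3 lost the call and none reversed. The 3 were all Mmp2 in fits without the filter that left out libraries, with the adjusted p given above. All 83 alternatives of count results stayed within 1.5 times. Leaving out each library in turn, 2942 to 3059 genes were called higher and 4664 to 4765 lower, and the members' counts did not change. Median-ratio rescaling gave 4281 higher and 3976 lower, and voom on fragments 3164 and 4909. Of 630 alternative values of 35 other named genes, 600 were the same. Lrp1 reversed under quantile normalization, at a log2 change of -0.013. In a window of 150 bases before the start, 2 members in place of 4 had an Ets match, and 3 in place of 4 a TATA match. With replicate number as a replicate block, 3121 genes were called higher and 4829 lower, with 5 members higher and 3 lower. No pairing by number was seen: same-numbered deviations correlated at -0.044, 0.078, 0.086 and -0.007, and not every library correlated best with its own number. Such low correlations cannot exclude that libraries were prepared in pairs, since a weak shared effect would look the same. Depth limits Mmp10 and Mmp13 in untreated cells, at 10 and 18 fragments over 4 libraries.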

Other observations

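Substrates of the enzymes changed in both directions. The shares over all tested genes were 26.6% called higher and 41.1% lower, so calls in both directions are not particular to substrates. Of 13 tested basement membrane genes, 6 were called higher, 4 lower and 3 neither. Lama4, a laminin chain of vessel walls, rose from 7.48 ± 0.529 to 28.8 ± 0.524 FPKM (SD, n = 4, log2 change 1.82, limma adjusted p = 9.8e-12), and Col4a1, a collagen IV chain, from 107 ± 6.04 to 144 ± 8.0 FPKM (limma adjusted p = 6.1e-06). Lama2 fell from 7.43 ± 0.328 to 1.94 ± 0.213 FPKM (log2 change -1.52, limma adjusted p = 5.1e-10) and Fn1, fibronectin, from 276 ± 33.3 to 177 ± 9.87 FPKM (limma adjusted p = 8.4e-06). Of 13 interstitial and brain matrix genes, 3 were called higher, 9 lower and 1 neither, with a median log2 change of -0.49 against -0.05 over all tested genes. Dcn, the proteoglycan decorin, rose from 1.45 ± 0.146 to 8.31 ± 2.58 FPKM (limma adjusted p = 2.9e-07). Ncan, the brain proteoglycan neurocan, fell from 60.9 ± 2.55 to 23.2 ± 2.95 FPKM (log2 change -1.36, limma adjusted p = 8.7e-09), Tnc, tenascin C, from 198 ± 9.42 to 125 ± 13.2 FPKM and Bgn, biglycan, from 208 ± 13.9 to 162 ± 10.6 FPKM. Dcn, Col1a1 and Col1a2 are also on the fibroblast marker list, whose members went both ways as given above, while the tested mural markers were lower. Their part in these changes was not tested.

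Of 6 tested genes for surface partners and clearance, 4 were called higher and 2 lower. The shares over all tested genes were 26.6% and 41.1%. Cd44, the hyaluronan receptor that holds Mmp9 and Mmp14 at the cell surface, rose from 34.6 ± 1.11 to 218 ± 6.55 FPKM (log2 change 2.63, limma adjusted p = 3.8e-14). Itgb1, the integrin β1 chain, fell from 319 ± 21.0 to 229 ± 6.31 FPKM (limma adjusted p = 1.2e-06). Bsg, known as an inducer of metalloproteases, was 276 ± 4.45 and 258 ± 4.61 FPKM (limma adjusted p = 0.0047, and 0.48 under median-ratio rescaling). Lrp1, an endocytic receptor that clears several metalloproteases, was 118 ± 3.12 and 125 ± 4.63 FPKM (limma adjusted p = 0.049). This call failed under 10 alternatives, among them leaving out untreated library 1, 3 or 4 or cocktail library 1, 2 or 4, with adjusted p from 0.065 to 0.21, and the sign reversed under quantile normalization.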
